A study of Zea mays with 12 samples.

Results

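In the developing maize leaf, 75 of the 110005 gene models in the transcript table started at a like level in the bundle sheath (BS) and the mesophyll (M) and were far lower at the leaf tip in both. They were chosen from measured values: in each cell type the mean at the sink–source transition (SST) was at least 20 FPKM (fragments per kilobase of transcript, in relation to all mapped fragments of a library) and at least 8 times the mean at the mature stage, the mean at the maturing stage lay between these or equalled one of them, and the SST means of BS and M were within 1.5-fold of each other. The fall along the leaf and the even start were therefore fixed by the choice and are described without a test. The choice set bounds on the maturing and mature means in each cell type but did not compare BS with M there, and those BS/M ratios were tested.

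Transcripts were measured by RNA-seq in 12 libraries from the third leaf of 9-day-old plants of the inbred Mo17, with cells taken by laser microdissection and their RNA amplified by one round before sequencing. The 6 groups, each of 2 libraries, were SST BS, SST M, maturing BS, maturing M, mature BS and mature M. SST is leaf section 4 at -1 cm from the site where the sink–source transition is completed, maturing is section 9 at 4 cm, and mature is section 14 at 9 cm. The labels give the sections and the methods of the study the positions, and both were put in the same order. The labels give this inbred for all libraries and name no treatment, while the methods of the paper name B73 plants as well. The reads were assigned to gene models of B73, and the labels do not say whether the libraries of a group came from separate plants, so p-values measure the spread between libraries, which may be technical.

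A maize leaf grows from its base, so that cells along the blade form a series of ages. Cells near the sink–source transition still import sugar and are finishing growth: they lay down wall, fold and sort newly made proteins, and build plastids. Older cells run C4 photosynthesis, in which M cells fix carbon first and pass it to BS cells. Cellulose is made at the plasma membrane, and wall glycosyl hydrolases trim or loosen wall polysaccharides during growth. Linker histones bind the DNA between nucleosomes and compact chromatin.

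The 4 BS markers (NADP-malic enzyme, a Rubisco small subunit, Rubisco activase and PEP carboxykinase) were higher in both BS than in both M libraries at each stage, and the 4 M markers (PEP carboxylase, NADP-malate dehydrogenase, carbonic anhydrase and PPDK) were higher in both M libraries, so the labels of the cell types held. The summed FPKM of the 4 BS markers was 8833 to 9786 in SST BS against 1265 to 1284 in SST M. For the 4 M markers the separation was smaller, at 9057 to 9335 in SST BS against 23667 to 27799 in SST M. At maturing the M marker sum was 15708 to 17239 in BS against 43519 to 46392 in M. The part of M marker transcripts in the BS libraries in the BS/M ratios was not tested. Of 5 epidermal markers, 4 were higher in both M than in both BS libraries at SST, 5 at maturing and 4 at mature. Their summed FPKM was 1.48 to 1.58 in SST BS and 2.34 to 7.07 in mature BS, and 6.81 to 7.39 in SST M and 16.7 to 18.0 in mature M, with ocl4 at 0 in all mature libraries. That of 5 vascular markers was 127 to 135 in SST BS and 47.6 to 47.9 in mature BS, and 11.8 to 18.7 in SST M and 34.6 to 61.9 in mature M, with the secondary wall regulator NST1 at 0 in all mature libraries. That of 18 genes annotated to cyclins, kinesins and DNA replication was 142 to 165 at SST and 188 to 293 at mature. Epidermal and cell cycle sums were thus not lower at mature, where the members were. The vascular sum was lower at mature than at SST in BS and higher in M. At maturing it lay outside both, at 279 to 299 FPKM in BS and 4.80 to 7.68 in M. A sum follows its most abundant genes, and single cell cycle genes went both ways, as given below. The part of these marker sets in the results was not tested. Relative to the first SST BS library, estimated depth was 0.645 to 1 at SST, 2.31 to 2.36 at maturing and 0.874 to 1.21 at mature.

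Together the 75 genes held 10654 to 11263 FPKM in the 4 SST libraries, 3082 to 4350 in the 4 maturing libraries and 314 to 445 in the 4 mature libraries. This was 0.811 to 1.06% of all FPKM of a library at SST and 0.0242 to 0.0396% at mature. The 3 stages did not overlap in this sum. FPKM is relative to the library, and in pooled captured cells fewer cells with a transcript and less of it per cell cannot be told apart. Mean SST levels ranged from 21.8 to 1911 FPKM, with a median of 46.7. Where the mature mean was above 0, the SST mean was a median 17.7 times the mature mean in BS (39 genes, 8.77 to 155) and 15.99 times in M (45 genes, 8.48 to 167).

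**Figure D1:**
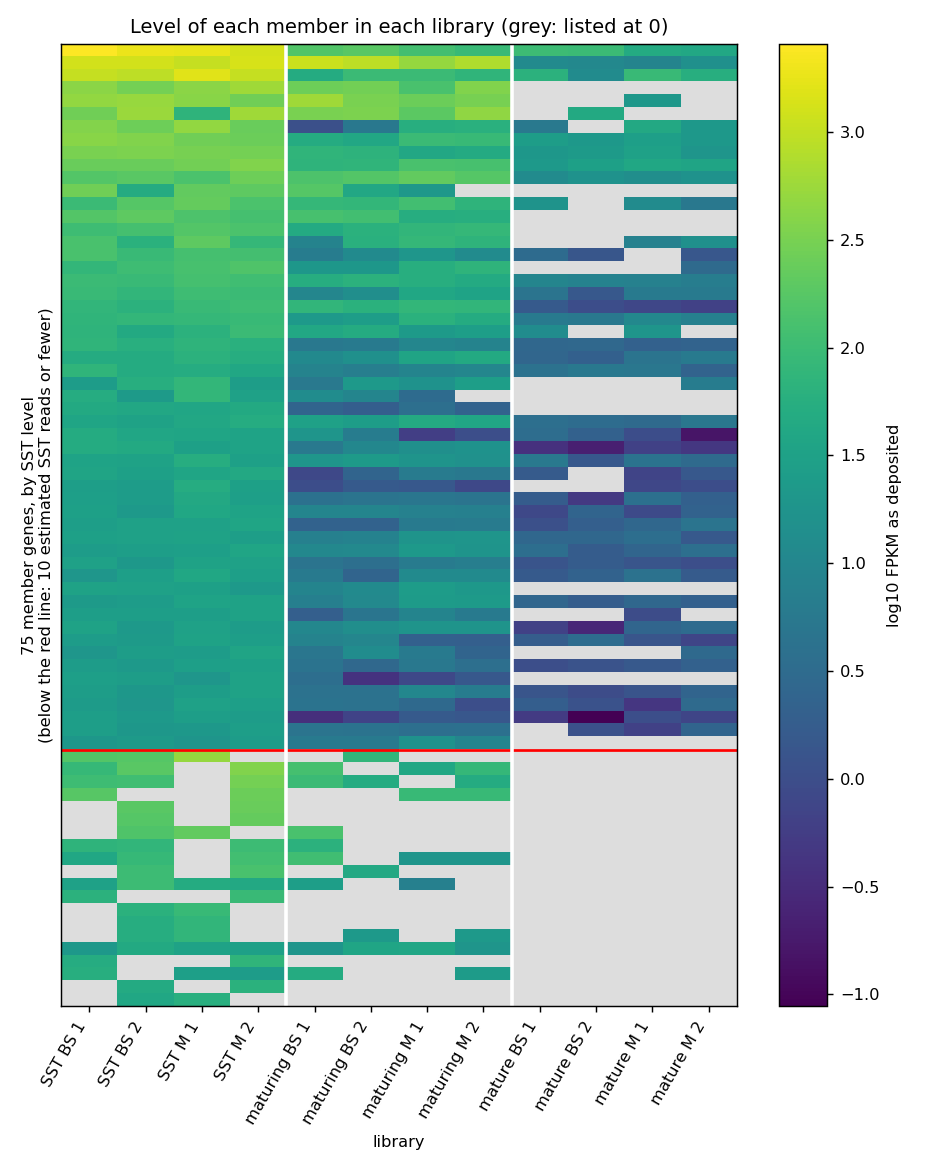
Level of the 75 members (rows, ordered by SST level) in the 12 libraries (columns) as log10 of the deposited FPKM, with values of 0 in grey. The 55 genes above the red line were above 0 in every SST library, while the 20 genes below it rest on 10 estimated SST reads or fewer and were at 0 in all mature libraries.

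The levels were not all equally well measured. In genes with few reads the FPKM values are whole multiples of the value of 1 read, and from this step the reads over the 4 SST libraries were estimated for 39 of the 75 genes. The largest fitting step was taken, so an estimate can be too low. An estimated 10 reads or fewer lay behind 20 genes, 11 to 100 reads behind 10 genes and more than 100 behind 9, and no step could be fitted for the other 36. Of the 20 genes, 12 had an estimated 2 reads in all. Such models gave high values from single reads, since 1 read was worth 18.4 to 181 FPKM in the first SST BS library. GRMZM2G591365, for example, was listed at 0 and 183 FPKM in the SST BS and 0 and 242 FPKM in the SST M libraries, and at 0 in the other 8. GRMZM2G518650 and GRMZM2G577610 had the same values in the SST libraries, 0 and 53.3 FPKM in BS and 77.1 and 0 FPKM in M. Of the 20 genes, 18 were at 0 in at least 1 SST library, all were at 0 in the 4 mature libraries, and none was paired with a RefSeq gene.

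In all, 29 members were at 0 in every mature library. For 24 of them a read estimate allowed a bound on the fall, with 3 reads over the 4 mature libraries as the most that a count of 0 allows. The bound pools the reads of BS and M over the 4 libraries of a stage. It does not bound the fall in each cell type alone, which was not computed. The estimated SST reads were taken as exact, so the bound covers counting error at mature but not at SST. It was below 1 for 12 genes, so a fall of these was not detectable at this depth, and between 1 and 8 for 9. The pooled bound was above 8 for 3: 8.28 for GRMZM2G568820 and for GRMZM2G537383, and 14.9 for GRMZM5G860002. With counting error at SST included these bounds would be lower, which was not computed. Among the 1852 other genes with the same start in both cell types, 1.89% had an estimated 10 reads or fewer, against 26.7% of the members. The other 55 members are the firmer set, though they include the 36 without a read estimate and 10 on an estimated 11 to 100 reads. In all 55 the lowest SST library was above the highest mature library, against 57 of all 75 and 15.4% of the 32548 genes tested, a count that the choice of members largely fixed.

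**Figure D2:**
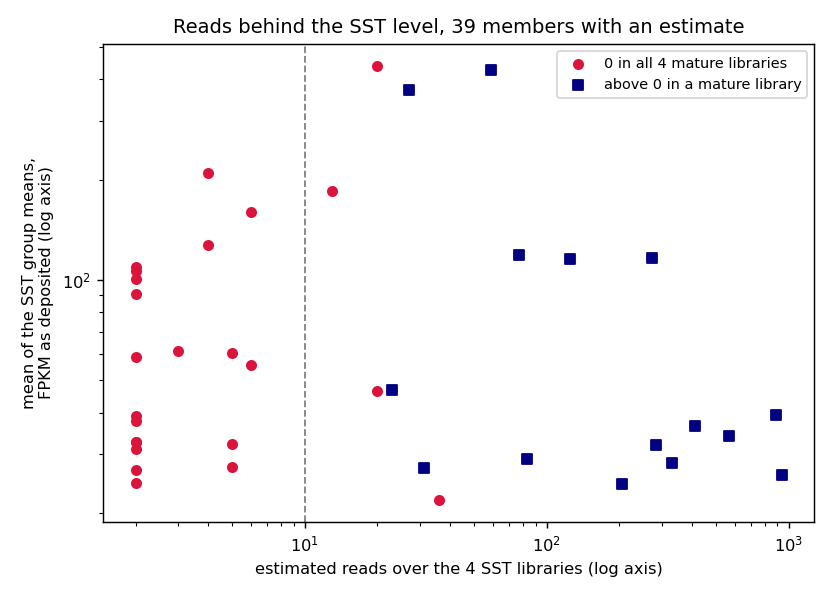
Mean SST level in FPKM against the estimated reads over the 4 SST libraries, both on log axes, for the 39 members with an estimate. The 20 points left of the dashed line at 10 reads were all at 0 in the mature libraries, and their levels reached 209 FPKM.

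A RefSeq gene was paired with 22 members (29.3%), against 65.4% of the 1852 other genes with the same start. A function was annotated for 5 members and a symbol of a known family for 1 more, while GRMZM5G891783 was shared by 2 RefSeq entries and is left unnamed. The functions were read from a partial copy of the study's list of genes called different between BS and M. The study had thus called these 5 members at some stage, with another test (DESeq) than the one used here. Members with a function or such a symbol are given first, by role.

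The first of these roles concerned the cell wall and its sugars. GRMZM2G110735 was annotated as the glycosyl hydrolase that in Arabidopsis is KORRIGAN, a membrane endoglucanase needed for cellulose synthesis. In BS its FPKM was 27.9 and 31.3 at SST, 2.21 and 2.20 at maturing and 1.09 and 1.96 at mature. In M it was 31.2 and 36.6, 6.04 and 6.32, and 2.75 and 4.53 at the same stages. The SST mean was 19.4 times the mature mean in BS and 9.33 times in M, and most of the difference was present at maturing. From maturing on, both M libraries were above both BS libraries, with a fitted log2 BS/M of -1.55 (SE 0.31) at maturing, limma adjusted p = 0.0115, which missed the threshold of 0.01. It passed in 5 of 21 alternative settings.

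GRMZM2G147687 (exg1) belongs to glycosyl hydrolase family 3, enzymes that release single sugars from the ends of wall polysaccharides. The BS libraries had FPKM of 29.5 and 26.1 at SST, 4.14 and 4.64 at maturing and 1.73 and 0.490 at mature. The M libraries had 43.6 and 29.2, 4.97 and 4.55, and 3.95 and 2.02 at the same stages. BS and M overlapped at SST and at maturing, and the log2 BS/M of -0.27 (SE 0.45) at maturing had a limma adjusted p of 0.835. GRMZM2G019986 was annotated as related to UDP-N-acetylglucosamine pyrophosphorylase, which makes the activated sugar used in protein glycosylation. BS levels in FPKM were 34.9 and 30.6 at SST, 0.812 and 2.44 at maturing and 1.65 and 0 at mature. M levels were 37.1 and 43.4, 6.201 and 5.35, and 0.712 and 1.502 at the same stages. Among members with mature means above 0 in both cell types it had 1 of the 5 largest falls, with SST to mature ratios of 39.7 in BS and 36.4 in M. At maturing both BS libraries were below both M libraries, though the log2 BS/M of -1.98 (SE 0.86) did not pass (limma adjusted p = 0.183).

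GRMZM2G365961 belongs to the prephenate dehydrogenase family, which acts in tyrosine synthesis from chorismate. Its levels in BS, in FPKM, were 28.1 and 21.9 at SST, 0.352 and 0.688 at maturing and 0.517 and 0.0878 at mature. Those in M were 28.4 and 25.8, 1.604 and 1.40, and 1.04 and 0.753 at the same stages. The SST mean was 82.7 times the mature mean in BS and 30.2 times in M. Nearly the whole difference lay between SST and maturing, where the ratio was already 48.1 in BS and 18.0 in M.

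GRMZM2G063244 was annotated as a chloroplast cyclophilin (ROC4 in Arabidopsis), a peptidyl-prolyl isomerase of protein folding. In BS its FPKM was 91.6 and 77.0 at SST, 9.91 and 14.4 at maturing and 4.63 and 1.49 at mature. In M it was 103.6 and 96.2, 40.5 and 34.3, and 5.97 and 5.96 at the same stages. Its level was lower in BS sooner: the SST mean was 6.94 times the maturing mean in BS and 2.67 times in M. The log2 BS/M at maturing was -1.78 (SE 0.41) with a limma adjusted p of 0.0213, which missed the threshold.

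GRMZM2G164020 carries the symbol hon110, of the linker histones. The BS libraries had FPKM of 96.2 and 91.9 at SST, 53.3 and 63.7 at maturing and 9.36 and 8.27 at mature. The M libraries had 122.5 and 110.4, 54.7 and 46.2, and 8.09 and 6.78 at the same stages. It kept more than the other annotated members at maturing, where BS and M overlapped and log2 BS/M was 0.05 (SE 0.16; limma adjusted p = 0.984). The SST mean was 10.7 times the mature mean in BS and 15.7 times in M. Other genes of the family were looked up by their symbols. For hon102 (GRMZM2G401308), which did not have an even start, SST FPKM was 181 and 168 in BS and 55.4 and 68.9 in M, and mature FPKM was 21.3 and 29.7 in BS and 9.36 and 6.12 in M. It fell in both cell types from SST to mature, with a log2 change of -2.60 in BS (limma adjusted p = 0.000165) and -2.86 in M (limma adjusted p = 0.000122). The level of hon101 (GRMZM2G080274) was 0.290 to 2.26 FPKM in all 12 libraries.

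**Figure D3:**
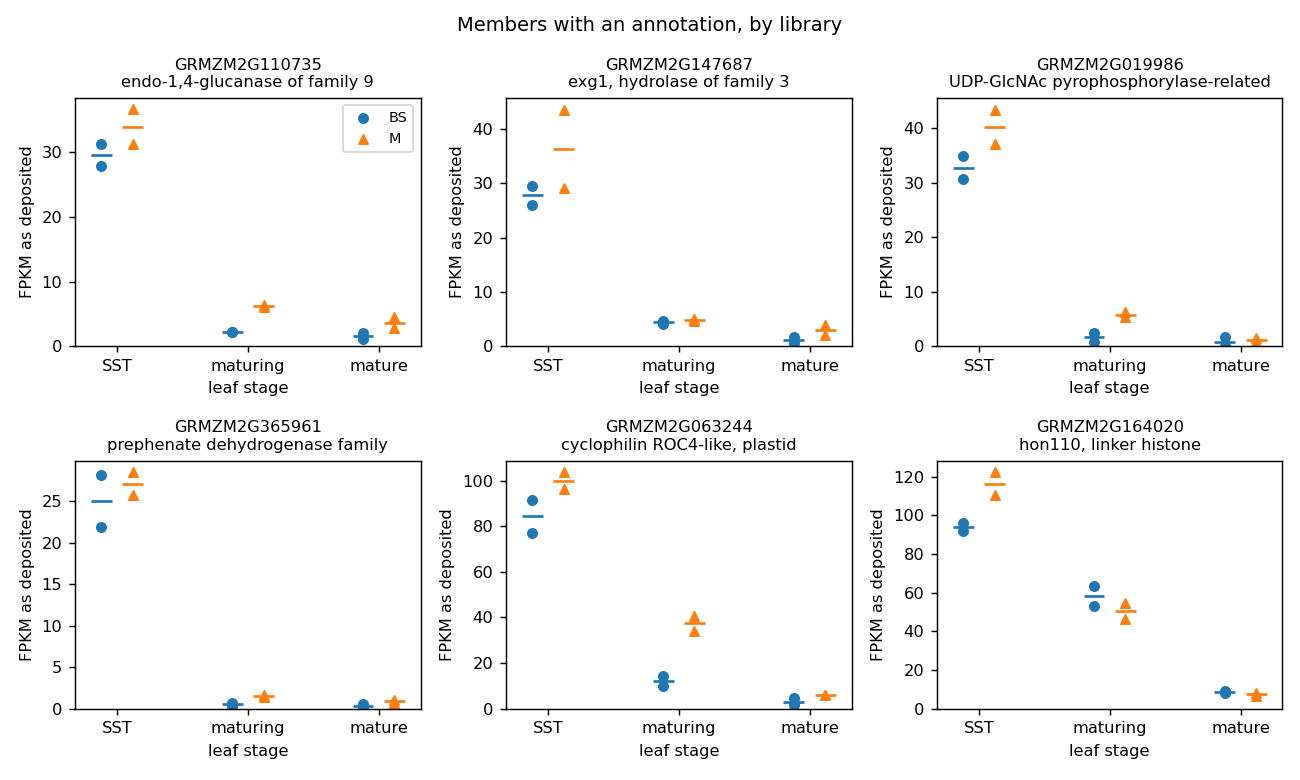
FPKM as deposited of the 6 members with an annotation or a descriptive symbol, in each library (points, BS circles and M triangles) with the mean of each group (bars). All 6 had their highest means at SST and their lowest at mature, and hon110 kept 46.2 to 63.7 FPKM at maturing while the prephenate dehydrogenase gene kept 0.352 to 1.604.

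The related genes were read from annotation that covered only 1465 of the genes that the study had selected as differing between BS and M in these libraries, which is not independent of them. Of 139 tested genes of the cell wall category, 51 were lower at mature than at SST and 11 higher in BS, and 48 lower and 14 higher in M (limma, adjusted p below 0.01), beside 9.91% lower and 12.1% higher of all genes tested in BS and 8.97% lower and 10.5% higher in M. The category holds 3 of the members. The median log2 change over the 139 genes was -1.22 in BS and -1.29 in M, against 0 over all genes tested. All genes tested are a wider set than the 1465 annotated genes, over which no share was taken. Of 21 expansins and xyloglucan enzymes, which loosen the wall, 8 were lower and 0 higher in BS, and 8 lower and 2 higher in M. Of 69 genes of cellulose synthesis and wall polysaccharides, 20 were lower and 6 higher in BS, and 19 lower and 8 higher in M. Of 10 arabinogalactan and other wall proteins, 5 were lower and 1 higher in BS, and 4 lower and 1 higher in M. Aromatic amino acid synthesis had 11 of 31 lower and 2 higher in BS, and 8 lower and 4 higher in M. Chaperones and folding enzymes, the list that holds the cyclophilin, had 4 of 21 lower and 4 higher in BS, and 3 lower and 3 higher in M. Of 16 histones, 3 were lower and 1 higher in BS, and 6 lower and 1 higher in M. Cell cycle and DNA replication, whose sum was not lower at mature, had 6 of 17 tested genes lower and 3 higher in BS, and 5 lower and 4 higher in M.

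Most of the abundant members had no role in the annotation used, which covered only genes that the study had called different between BS and M. GRMZM2G091189 had the highest level, in BS with 2561 and 1923 FPKM at SST, 159.7 and 184 at maturing and 101.6 and 95.7 at mature. The M libraries had 1842 and 1319.8, 118 and 92.7, and 46.9 and 41.9 FPKM at these stages. The SST mean was already 13.0 times the maturing mean in BS and 15.0 times in M. GRMZM5G858914 was alike in timing. Its BS libraries had 1054 and 924 FPKM at SST, 48.8 and 98.7 at maturing and 65.6 and 12.4 at mature, and its M libraries 1643 and 1047, 98.5 and 72.5, and 91.5 and 56.1. Its maturing and mature libraries overlapped.

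GRMZM2G537793 stayed high for longer. BS levels in FPKM were 1269 and 1245 at SST, 1102 and 922 at maturing and 12.1 and 10.5 at mature. M levels were 1053 and 1401, 498 and 742, and 9.04 and 15.5 at the same stages. The SST mean was 112 times the mature mean in BS and 100.1 times in M, and most of the difference lay between maturing and mature. GRMZM2G568820 (301 to 598 FPKM at SST and 131 to 360 at maturing) rested on an estimated 20 SST reads, GRMZM2G497423 (277 to 522 FPKM at SST) on 59 and GRMZM2G579683 (71.8 to 591 FPKM at SST) on 27. In these 3 genes the SST and maturing libraries overlapped, and of their mature libraries only 1 of GRMZM2G497423 and 1 of GRMZM2G579683 were above 0, each with an estimated 1 read.

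The libraries of the cell types did not overlap at maturing for GRMZM5G857152, with 1.09 and 5.32 FPKM in BS and 54.5 and 61.1 in M, after 377 and 260.1 in SST BS and 475 and 249 in SST M. Its mature values, 5.72 and 0 in BS and 43.2 and 20.8 in M, kept the order. It was called at neither stage (log2 BS/M at maturing -4.56, SE 1.304, limma adjusted p = 0.0493, and 0.0505 at mature). GRMZM2G095252 (250 to 408 FPKM at SST), GRMZM2G118003 (299 to 342) and GRMZM2G013478 (242 to 365) completed the 10 highest. At mature these 3 were at 20.9 to 29.6, 18.6 to 31.1 and 22.2 to 39.5 FPKM.

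Among members with mature means above 0 in both cell types, the largest falls by the smaller of the ratios were those of GRMZM2G537793, GRMZM2G051949, GRMZM2G018800, GRMZM2G401753 and GRMZM2G019986. GRMZM2G051949 had 48.7 and 44.9 FPKM in SST BS and 29.9 and 34.2 in SST M, and at mature 0.385 and 0.218 in BS and 0.637 and 0.468 in M, ratios of 155 and 58.0. GRMZM2G018800 was unlike it in timing: 75.1 and 66.3 FPKM in SST BS and 92.4 and 103.9 in SST M were followed by 77.5 and 63.5 in maturing BS and 79.8 and 77.3 in maturing M, and only then at mature by 1.62 and 1.01 in BS and 0.791 and 0.631 in M. GRMZM2G401753 had 91.5 to 131 FPKM at SST, 6.70 to 19.5 at maturing and 0 to 3.20 at mature, on an estimated 272 SST and 4 mature reads. Of the genes at 0 in all mature libraries, GRMZM2G568820, GRMZM2G572046 and GRMZM2G575754 had the highest start, the last 2 on an estimated 4 and 13 reads.

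The members differed in when they were lower. The share of the log2 difference between SST and mature that had been reached at maturing, on upper quartile scaled values with a pseudocount of 0.256 FPKM, was a median 42.7% in BS and 34.7% in M over the 55 genes not on 10 reads or fewer. It was larger in BS in 34 of the 55 and larger in M in 21. On FPKM as deposited the medians were 43.7% and 38.9%, with 32 larger in BS and 23 in M. The quartiles were 19.2 and 62.0% in BS and 12.6 and 63.1% in M. In 15 of the 55 it was below 25% in both cell types, among them GRMZM2G018800, GRMZM2G537793, GRMZM2G562501 and GRMZM2G087435. It was above 75% in both for GRMZM2G365961 and GRMZM5G858914. For 27 of the 55 the 4 SST libraries lay above the 4 maturing libraries and these above the 4 mature libraries. Over all 75 the medians were 44.1% in BS and 41.1% in M, and their order turned on FPKM as deposited (45.0% and 46.2%), while with median-of-ratios scaling they were 45.3% and 45.2%. With 1 library left out they ranged from 36.2% in M (without the second maturing M library) to 51.9% in BS (without the first maturing BS library). The medians over the 75 also moved with the pseudocount. They were 42.3% in BS and 37.7% in M with the quartile divided by 100, and 50.5% and 44.2% with 1 FPKM.

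**Figure D4:**
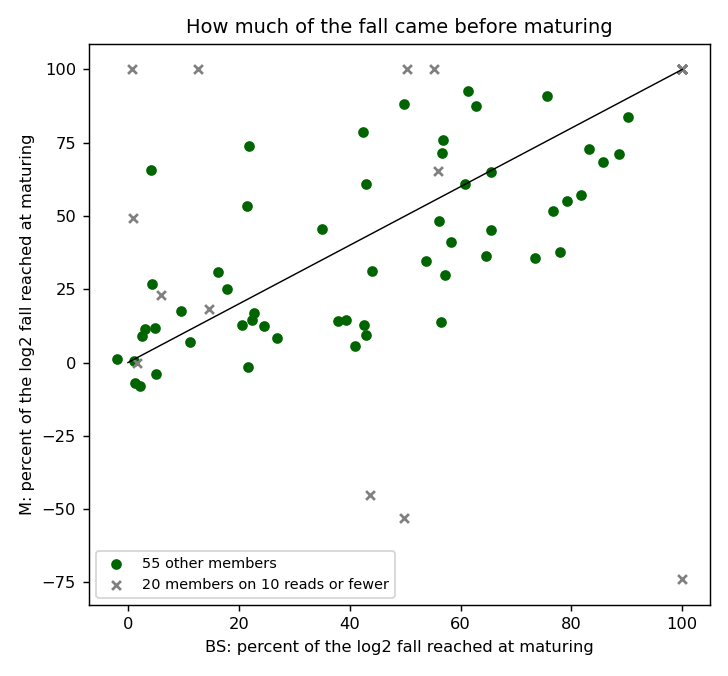
Percent of the log2 difference between SST and mature that had been reached at maturing, in BS (horizontal) and M (vertical), for each member; points below the line reached more in BS. The 55 members not on 10 reads or fewer are circles, from -1.98 to 90.3% in BS, and the other 20 are crosses.

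Between the cell types at maturing, the members were called at a share near that of other genes. With limma (adjusted p below 0.01 over all genes tested), 9 of the 75 were called, 6 higher in M and 3 higher in BS, beside 8.38% of the 32548 genes tested (3.56% higher in M and 4.82% higher in BS). All 9 were among the 55. Of the 1852 other genes with the same start, 287 were called (15.5%), 203 higher in M and 84 higher in BS. The median log2 BS/M was -0.27 over the 75 members, -0.26 over the 1852 and 0 over all genes tested. Over the 55 members not on 10 reads or fewer it was -0.55, with 36 genes higher in M and 19 in BS. On FPKM as deposited the median was -0.11 over the 75 and -0.40 over the 55. At mature 4 of the 75 were called, 3 higher in M and 1 in BS, beside 5.72% of all genes tested (2.07% higher in M and 3.66% higher in BS). Of the 1852 other genes with the same start, 157 were called (8.48%), 53 higher in M and 104 higher in BS. As 29 members were at 0 in all mature libraries, the median over the 75 does not describe their balance. Over the 55 the median log2 BS/M at mature was -0.14, with 33 genes higher in M, 13 higher in BS and the rest at 0.

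Of the members called at maturing, GRMZM2G085550 was the most BS-enriched, with 18.5 and 6.51 FPKM in maturing BS and 0.582 and 1.03 in maturing M, after 48.8 and 38.3 in SST BS and 37.0 and 33.9 in SST M. Its log2 BS/M was 3.31 (SE 0.59; limma adjusted p = 0.00657), and both mature BS libraries (3.42 and 2.18) were again above both M libraries (0.983 and 0.156). GRMZM2G086496 followed at 1.92 (SE 0.30; adjusted p = 0.00372), with 8.81 and 9.67 FPKM in maturing BS and 2.06 and 1.95 in maturing M. GRMZM2G430269 was at 0.99, with 131 and 112 FPKM in BS and 53.5 and 55.1 in M.

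GRMZM2G050118 was the most M-enriched of the called members, at 11.7 and 15.2 FPKM in maturing BS and 36.1 and 44.6 in maturing M, a log2 BS/M of -1.74 (SE 0.23; adjusted p = 0.00186). GRMZM2G060842 (7.39 and 11.3 FPKM in BS, 24.9 and 24.04 in M; log2 BS/M -1.56), GRMZM2G389450 (9.07 and 12.0 in BS, 26.2 and 21.3 in M; -1.32), GRMZM2G110023 (22.9 and 27.2 in BS, 61.4 and 49.6 in M; -1.30), GRMZM2G095252 (48.6 and 41.8 in BS, 96.8 and 89.8 in M; -1.21) and GRMZM2G013478 (71.5 and 74.3 in BS, 136 and 131 in M; -1.03) were the other members called. In these 6 genes the lower BS level at maturing went with SST means within 1.5-fold, as the choice required. At SST both M libraries were already above both BS libraries for GRMZM2G050118, GRMZM2G060842, GRMZM2G110023 and GRMZM2G013478 (248 and 242 FPKM in BS, 290 and 365 in M for the last). The order was the other way at SST for GRMZM2G389450 and GRMZM2G095252 (408 and 370 in BS, 270 and 250 in M for the last). GRMZM2G085550 was not called with a pseudocount of the quartile divided by 100 (adjusted p = 0.0156) or with no filter on low values (0.0106), GRMZM2G389450 not with that pseudocount (0.0116), GRMZM2G013478 not on FPKM as deposited (0.0123), with median-of-ratios scaling (0.0109), no filter (0.0110) or no trend of the spread (0.0250), and GRMZM2G095252 and GRMZM2G430269 not with no trend of the spread (0.0101 and 0.0142). The count at maturing rested on few libraries: 4 members were called without the first or the second SST BS library, 0 without the first maturing BS library, 3 without the first and 1 without the second maturing M library, and 1 where the stages were fitted apart.

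At mature the called members were GRMZM2G091189, GRMZM2G553970, GRMZM5G858839 and GRMZM2G027962. GRMZM2G091189, the most abundant member, was higher in BS by a log2 BS/M of 1.18 (SE 0.20; limma adjusted p = 0.00817). It was not called on FPKM as deposited (adjusted p = 0.0102), with no filter on low values (0.0124) or with no trend of the spread (0.0217). GRMZM2G027962 had at mature 0.645 and 0.274 FPKM in BS and 2.55 and 3.23 in M (log2 BS/M -2.17, SE 0.31; adjusted p = 0.00343). GRMZM5G858839 was at 0 in both mature BS libraries and at 0.781 and 0.988 FPKM in those of M, and GRMZM2G553970 was at 0 in BS and at 8.02 and 15.2 in M, on an estimated 10 and 5 mature reads. Their fitted ratios depend on the pseudocount, and with 1 FPKM neither was called. The count at mature was 0 without the first or the second maturing M library or the second mature BS library, 1 without either SST BS or either mature M library, and 2 without either SST M or either maturing BS library. With the stages fitted apart it was 0.

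No member was called for a change of BS/M from maturing to mature (0 of 75, limma adjusted p below 0.01), beside 0.934% of all genes tested. At an unadjusted p below 0.05 there were 16 (21.3%), beside 18.5% of all genes. The lowest adjusted p, 0.0376, was that of GRMZM2G095252, whose log2 BS/M was -1.21 at maturing and -0.03 at mature, a change of 1.17 (SE 0.24). The count was 2 without the first and 1 without the second mature M library.

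**Figure D5:**
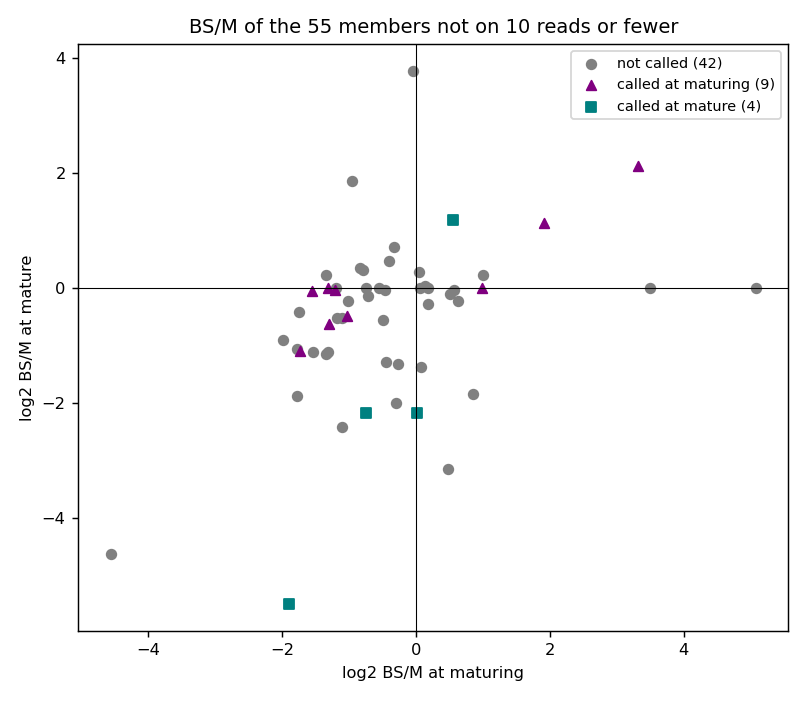
Fitted log2 BS/M at maturing (horizontal) and at mature (vertical) of the 55 members not on 10 reads or fewer; triangles were called at maturing (9), squares at mature (4). Left of and below 0 a gene was higher in M, as were 6 of the 9 at maturing and 3 of the 4 at mature.

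Along the leaf 53 of the 75 members were called lower from SST to mature in BS (9.91% of all genes tested) and 50 in M (8.97% of all genes tested). The choice used this contrast, so these counts only say that 22 and 25 members did not pass with 2 libraries a group. Just inside the limits of the choice were GRMZM2G506683 and GRMZM5G860002 for the lower SST mean (20.2 and 21.7 FPKM), GRMZM5G881617 and GRMZM2G013478 for the smaller ratio of SST to mature (8.48 and 8.70), and GRMZM5G858839 and GRMZM2G572046 for evenness at SST (1.498 and 1.497). Just outside were GRMZM2G007806 and GRMZM5G841975 (19.4 and 19.3 FPKM), GRMZM2G385287 and GRMZM2G086788 (7.77 and 7.72) and GRMZM2G043112 and GRMZM2G181607 (1.504 and 1.514). The condition on the maturing mean removed 49 of 124 genes that met the others: the maturing mean was above the SST mean in 27 of these in BS and 29 in M. Without the second SST M library the rule gave 49 genes, of which 40 were among the 75.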

How the data were processed

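The authors deposited 1 FPKM value for each gene model and library, computed from Illumina reads of laser-captured cells after one round of RNA amplification. The submitters' processing notes name CASAVA 1.3, TopHat2 2.0.10, Cuffdiff 2.1.1 and the B73 RefGen_v3 build, while the paper names an earlier release of the build. No read counts were used. Depth and reads were estimated from low values, which are whole multiples of 1 read (tolerance 0.02 plus 0.001 per read). The bounds on the fall pool BS and M and cover counting error at mature only. Members were chosen on FPKM as deposited. The members and lists were chosen with earlier results of these data known.

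For tests, the upper quartile of each library was set to 2.56 FPKM (factors 0.909 to 1.12) and log2 values were taken after adding 0.256, the quartile divided by 10, which draws fitted fold changes of low genes toward 0. The 32548 genes whose mean reached 0.256 in some group were fitted with limma 3.58.1 in R 4.3.3 (6 group means, a trend of the spread, 6 residual and 2.12 prior degrees of freedom), with Benjamini-Hochberg adjustment inside each comparison, and an adjusted p below 0.01 was called. The fit and the read steps were tested on simulated data. Software was Python 3.11.15 with matplotlib 3.10.9, NumPy 2.4.6 and pandas 2.3.3.

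Named are the 10 members with the highest mean of the SST group means, the 5 largest falls by the smaller ratio, up to 3 with the highest start at 0 in all mature libraries, up to 5 called at a stage in each direction, up to 3 of a functional list and up to 2 on each side of a limit. The annotated members, the linker histones, examples of few reads, the sixth gene higher in M, and other genes named for timing or at mature were added after values were seen. RefSeq names of Zm-B73-REFERENCE-NAM-5.0 matched 18986 gene models but give no product, so the 23 lists were matched to the annotation of a partial copy of the study's list of 1465 genes (17 lists matched). Promoter sequences were not used here.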

Additional observations from a re-analysis of the deposited data

How the results depend on the processing

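The number of genes the rule chose was 64 on upper quartile scaled and 79 on median-of-ratios scaled FPKM (62 and 74 of them among the 75), 126 with a fall of 4 times, 48 with 16 times, 108 with a start of 10 FPKM and 39 with 40 FPKM, and 49 to 79 with 1 library left out. Without the genes on 10 estimated reads or fewer, a limit set after seeing the data, it was 55. The members called between BS and M at maturing were 9, and 0 to 11 with 1 library left out and 1 with a separate fit for each stage. At mature they were 4, and 0 to 6 with 1 library left out, 2 with a pseudocount of 1 FPKM and 0 with separate fits. For the change between the stages they were 0, and 0 to 2 with 1 library left out and 1 with a pseudocount of the quartile divided by 100. The replicate numbers did not pair the libraries: deviations of the same number correlated between groups at -0.117 to 0.161 over 7657 genes. With the replicate block, 2 members were called at mature (GRMZM2G553970 and GRMZM5G858839 were not) and at maturing 9, with GRMZM2G110735 in place of GRMZM2G389450. With 1 library left out, log2 BS/M of 3 uncalled cases changed sign: at mature GRMZM2G019986 ranged from -2.38 to 0.55 and GRMZM5G891783 from -1.02 to 0.17 (both positive without 1 library), and at maturing GRMZM2G164020 from -0.11 to 0.21 (negative, -0.11 and -0.07, without the second maturing BS or M library). The causes were not tested. Shallow SST M libraries and 2 libraries a group limit the precision.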
